A study of Arabidopsis thaliana with 9 samples.

Results

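The nuclear genes for photosystem and electron transport subunits are a set of 38 loci among 37328 genes in the authors' deposited table, and every one of them was tested by the authors in both comparisons. They were chosen by locus: 12 genes for photosystem I subunits (PSAD to PSAO), 14 for photosystem II subunits (PSBO to PSBY, PSBTN, PSB27 and PSB28), 7 for electron carriers (plastocyanin, the Rieske protein, ferredoxins and ferredoxin reductases), 3 for ATP synthase subunits, and PGR5 and PGRL1A of cyclic electron flow. Genes for the chlorophyll-binding antenna were not included. RNA sequencing compared whole Arabidopsis thaliana seedlings, all in the Col-0 ecotype, after 7 days in continuous white light at 22 °C. The light level was 50 µmol per m² per s for all samples. The groups were the wild type, a double mutant of GLK1 and GLK2 (glk12) and a line overexpressing RPGE2 (RPGE2-OX), with 3 replicates each, and all of them had spent 3 days at 4 °C before the light. The labels do not name the mutant alleles, the promoter that drives RPGE2, or whether RPGE2-OX is a single transformed line, and they do not state that the replicates were grown apart, so q values may measure technical spread only.

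Photosynthetic electron flow starts at photosystem II, which takes electrons from water, passes through the cytochrome b6f complex and plastocyanin to photosystem I, and ends at ferredoxin and its NADP reductase, while the proton gradient drives the ATP synthase. Each complex is built from subunits encoded in the plastid, among them the reaction centre cores, and from nuclear-encoded subunits that are imported. The GOLDEN2-LIKE proteins GLK1 and GLK2 switch on many nuclear photosynthesis genes, and RPGE proteins were described as repressors that act on GLK1.

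The deposited table holds 1 log2 ratio and 1 q value per gene and comparison, and no level or read count per sample. Values per sample, an SD and the depth of each library therefore cannot be given, and levels cannot be compared between genes. In the authors' deposited table GLK1 was 6.22-fold and GLK2 2.65-fold lower in glk12, each at q = 0.0019. In RPGE2-OX the RPGE family locus AT3G55240 was 27.7-fold higher at q = 0.0018 in the deposited table, which itself pairs no locus with the name RPGE2. Its deposited value in glk12 was 88.2-fold lower than in the wild type, and in RPGE2-OX GLK1 was 1.37-fold higher (q = 0.013) and GLK2 1.32-fold higher (q = 0.038) in the deposited table. Errors below are standard errors implied by a gene's deposited ratio and q value. For genes at the lowest p the table can hold they are upper bounds, which applies to 23 of the 38 genes in glk12 and 27 in RPGE2-OX. Both lines were compared with the same wild-type libraries, so their values are not independent of each other and are given side by side.

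With glk12 set against the wild type, the question is how much of each subunit transcript depends on the GLK pair. Photosystem and electron transport transcripts were lower in glk12: 29 of 38 genes fell, none rose and 9 did not pass, at a q below 0.05. Of all tested genes, 5.67% were called in this comparison, 3.04% lower and 2.63% higher. The median log2 ratio of the 38 genes was -1.13 in the deposited table, a 2.19-fold lower level, against 0.02 for all tested genes. At 38 of 38 genes the deposited ratio lay below 0, as it did for 47.7% of tested genes. Of the 29 genes, 20 were at least 2-fold lower, a size and call reached by 2.58% of tested genes, 1.34% downward and 1.24% upward.

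RPGE2-OX was compared with the wild type to ask what a higher level of RPGE2 does to the same transcripts. Here 31 of 38 genes fell, none rose and 7 did not pass, while 6.55% of all tested genes were called, 3.98% lower and 2.57% higher. The median deposited log2 ratio was -0.98, a 1.97-fold lower level, against 0.01 for all tested genes. Of the 31 genes, 17 were at least 2-fold lower. Of tested genes 1.76% had a call of that size, 1.2% downward and 0.558% upward. Whole seedlings were sampled, so less RNA per cell and fewer green cells cannot be told apart. Of 10 markers of root cells, another organ in these samples, 3 fell and none rose in each line, with median deposited log2 ratios of -0.53 in glk12 and -0.33 in RPGE2-OX and ranges of -0.89 to 0.21 and -0.68 to 0.07. The root hair gene COBL9 was 1.86-fold lower in glk12 (q = 0.023) and 1.61-fold lower in RPGE2-OX (q = 0.018) in the deposited table. Of the 10 markers, 7 had a deposited ratio below 0 in glk12 and 8 in RPGE2-OX. SCR, PLT1 and PIN2 lay above 0 in glk12, at log2 ratios of 0.21, 0.21 and 0.04, and did not pass. In RPGE2-OX they were at 0.07, 0.01 and -0.33. All 10 root markers had a finite ratio in each line, and their levels cannot be given from this table. The part of organ composition in the falls of the subunit genes was not tested.

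**Figure D1:**
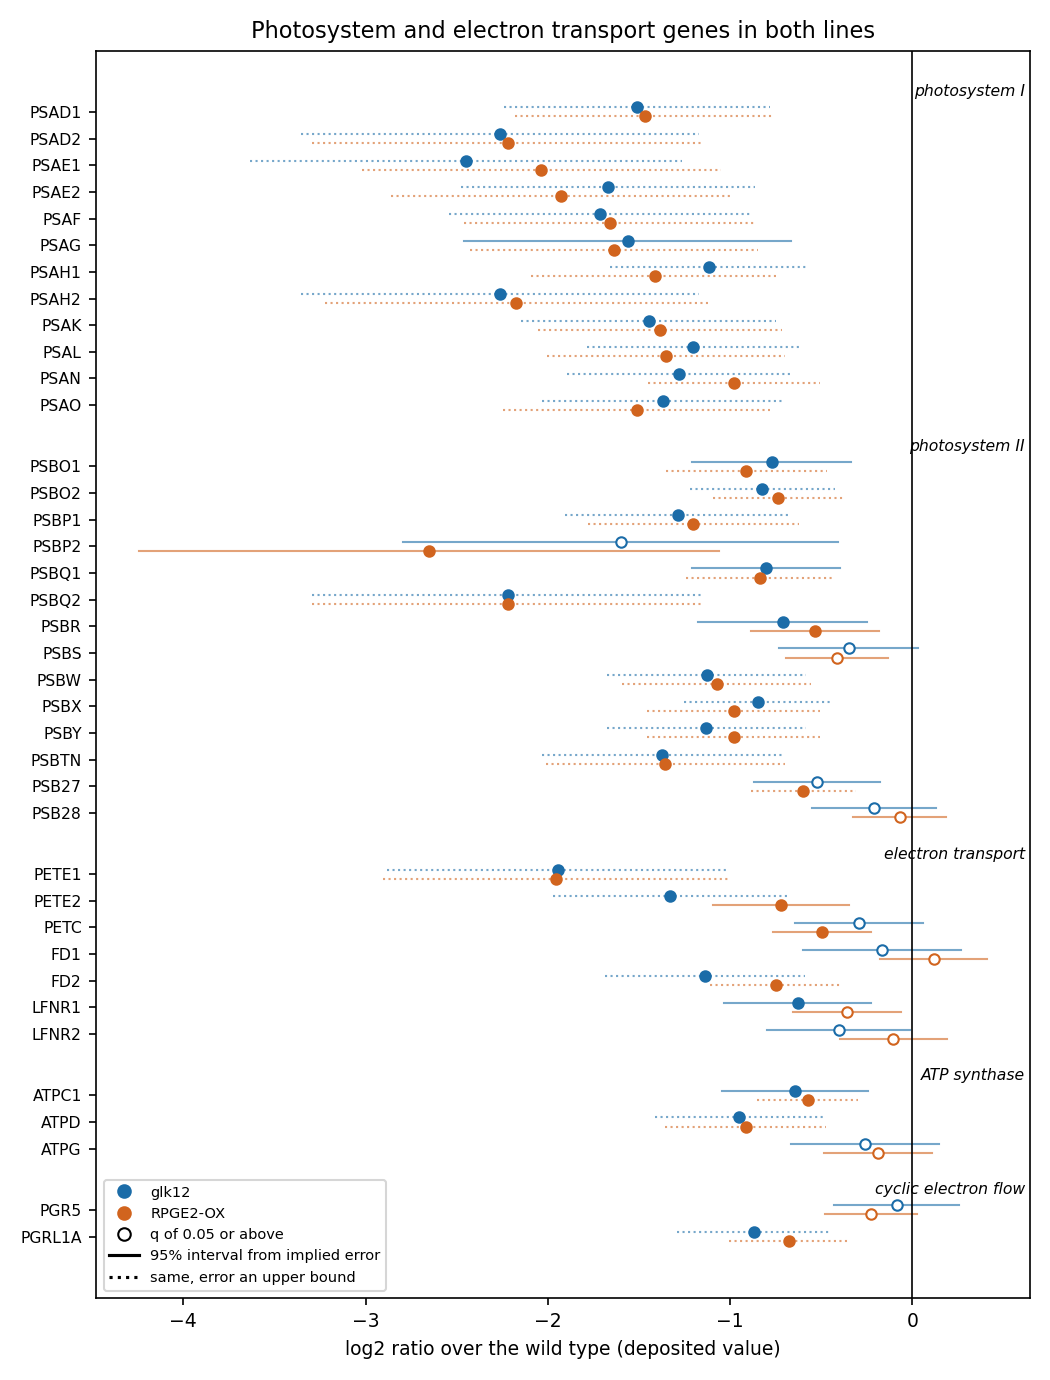
Deposited log2 ratio over the wild type (x axis) for each of the 38 genes (y axis, by complex) in glk12 (blue) and RPGE2-OX (orange). Filled points have a q below 0.05, lines are 95% intervals from implied errors, and dotted lines mark errors that are upper bounds. All photosystem I points are filled and lie between -2.45 and -0.98, while open points are found among photosystem II, electron transport, ATP synthase and cyclic flow genes.

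Photosystem I genes fell without exception in this set. All 12 of them fell in both lines, with median deposited log2 ratios of -1.54 in glk12 and -1.57 in RPGE2-OX, that is 2.90-fold and 2.98-fold lower. The smallest falls were those of PSAH1 (AT3G16140) in glk12 (-1.12) and PSAN (AT5G64040) in RPGE2-OX (-0.98) in the deposited table. So the least affected photosystem I gene in glk12 lay close to the median of the whole set.

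On the stromal side, PSAD and PSAE form the ridge that docks ferredoxin, and the deepest photosystem I fall of each line was among their genes. PSAE1 (AT4G28750) had a deposited log2 ratio of -2.45 in glk12 (5.46-fold lower, error at most 0.60, q = 0.0019) and of -2.04 in RPGE2-OX (4.10-fold lower, error at most 0.50, q = 0.0018). It ranked 1 of 38 by fall in glk12 and 5 of 38 in RPGE2-OX. PSAD2 (AT1G03130) was 4.80-fold lower in glk12 and 4.66-fold lower in RPGE2-OX in the deposited table, at the same q values. Its partner PSAD1 (AT4G02770) was 2.85-fold and 2.77-fold lower there, and PSAE2 (AT2G20260) 3.18-fold and 3.81-fold lower.

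On the lumenal side, PSAF (AT1G31330) and PSAN, which face plastocyanin, both fell. PSAF was 3.28-fold lower in glk12 and 3.16-fold lower in RPGE2-OX in the deposited table. PSAN was 2.43-fold and 1.97-fold lower there. The small membrane subunits PSAG (AT1G55670) and PSAK (AT1G30380) lie at the rim of the complex and help to hold its antenna. PSAG was 2.95-fold lower in glk12 at q = 0.016, the only photosystem I gene above the lowest q in that line, and 3.11-fold lower in RPGE2-OX at q = 0.0018 in the deposited table. PSAK was 2.73-fold and 2.61-fold lower there.

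PSAH, PSAL (AT4G12800) and PSAO (AT1G08380) line the opposite edge, where mobile antenna docks during state transitions. PSAH2 (AT1G52230) was 4.80-fold lower in glk12 and 4.51-fold lower in RPGE2-OX in the deposited table, next to PSAD2 in size. PSAH1 was 2.17-fold and 2.66-fold lower there. In glk12 PSAL and PSAO stood between them, and in RPGE2-OX PSAL lay just under PSAH1, with PSAL at 2.30-fold and 2.55-fold lower and PSAO at 2.58-fold and 2.85-fold lower in the deposited table, in the same order of lines.

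Photosystem II genes had a wider range. Of 14 genes, 10 fell in glk12 and 12 in RPGE2-OX, with median deposited log2 ratios of -0.83 and -0.95, that is 1.78-fold and 1.93-fold lower. The ratios ran from -2.22 to -0.21 in glk12 and from -2.65 to -0.07 in RPGE2-OX. At least 2-fold falls were called for 5 of the 14 in each line, against 12 and 11 of the 12 photosystem I genes.

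The oxygen-evolving complex, whose lumenal proteins PSBO, PSBP and PSBQ shield the manganese cluster, held the largest called fall of photosystem II in each line. PSBQ2 (AT4G05180) had a deposited log2 ratio of -2.22 in each line (4.66-fold lower, error at most 0.55, q = 0.0019 and 0.0018), while PSBQ1 (AT4G21280) was 1.74-fold lower in glk12 (q = 0.0035) and 1.79-fold lower in RPGE2-OX (q = 0.0018). PSBP1 (AT1G06680) was 2.44-fold and 2.30-fold lower in the deposited table. The PSBO genes were close to each other: PSBO1 (AT5G66570) was 1.71-fold lower in glk12 (q = 0.015) and 1.88-fold lower in RPGE2-OX, and PSBO2 (AT3G50820) was 1.77-fold and 1.67-fold lower in the deposited table. PSBP2 (AT2G30790) had the widest errors of all 38 genes. Its deposited log2 ratio was -1.60 ± 0.61 in glk12, which did not pass (q = 0.11), and -2.65 ± 0.81 in RPGE2-OX (6.28-fold lower, q = 0.022). In the RefSeq annotation the coding length of PSBP2 is 378 bases, against 792 for PSBP1.

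Small subunits of photosystem II fell in both lines. PSBTN (AT3G21055), a small lumenal subunit, was 2.59-fold lower in glk12 and 2.56-fold lower in RPGE2-OX in the deposited table. PSBW (AT2G30570), which stabilises the supercomplex with its antenna, was 2.19-fold and 2.11-fold lower there. PSBY (AT1G67740) and PSBX (AT2G06520), small membrane subunits, had deposited log2 ratios of -1.13 and -0.85 in glk12 and -0.98 each in RPGE2-OX. PSBR (AT1G79040), which helps to hold PSBP, had the smallest called fall of photosystem II in each line, at 1.64-fold lower (q = 0.048) and 1.45-fold lower (q = 0.044) in the deposited table.

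Besides PSBP2 in glk12, the photosystem II genes that did not pass were PSBS (AT1G44575) and PSB28 (AT4G28660) in both lines and PSB27 (AT1G03600) in glk12. PSBS, the sensor of energy-dependent quenching, was at a deposited log2 ratio of -0.35 ± 0.19 (q = 0.39) in glk12 and at -0.42 ± 0.14 (q = 0.053) in RPGE2-OX. PSB28, an assembly factor, was at -0.21 ± 0.17 (q = 0.67) and -0.07 ± 0.13 (q = 0.91). PSB27, which binds during assembly and repair, was at -0.52 ± 0.18 in glk12 (q = 0.054) and was 1.51-fold lower in RPGE2-OX at q = 0.0018 in the deposited table, where its log2 ratio was -0.60. The values of PSB27 in both lines differed by less than their errors, although only that in RPGE2-OX passed.

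**Figure D2:**
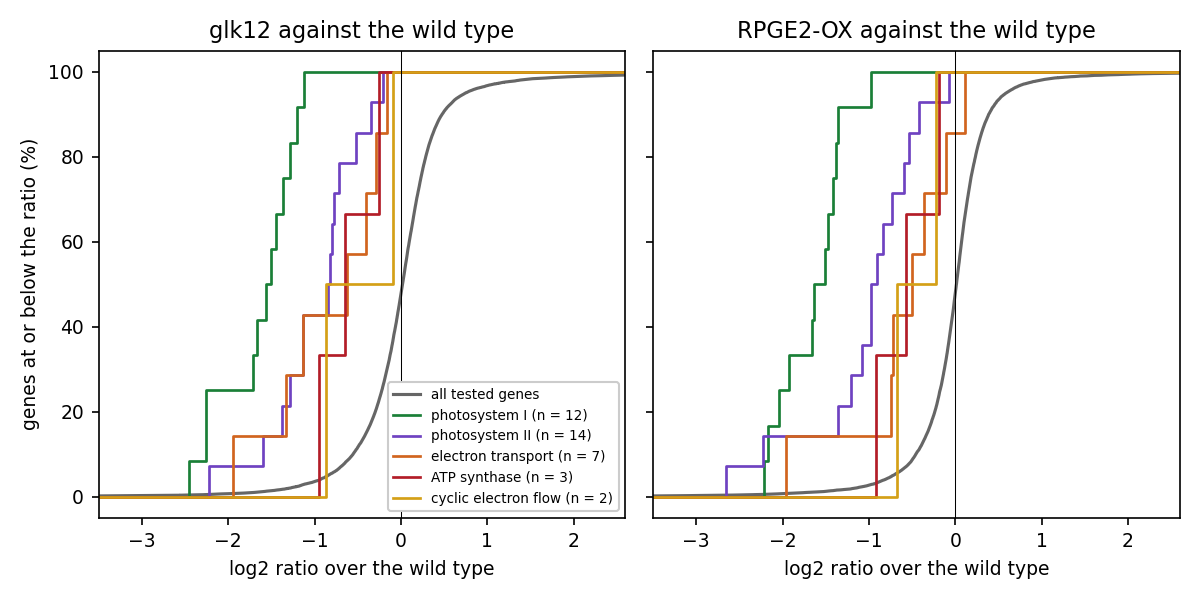
Share of genes (y axis, percent) at or below a deposited log2 ratio over the wild type (x axis) in glk12 (left) and RPGE2-OX (right), for each complex and for all tested genes (grey). By median, photosystem I lies farthest to the left, at -1.54 and -1.57, followed by photosystem II at -0.83 and -0.95. In RPGE2-OX the lowest photosystem II gene, at -2.65, lies below the lowest photosystem I gene, at -2.22. All tested genes centre on 0.02 and 0.01.

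Electron carriers were split by gene. Of the 7 genes, 4 fell in each line, with median deposited log2 ratios of -0.63 in glk12 and -0.50 in RPGE2-OX. PETE1 (AT1G76100), a gene for plastocyanin, was 3.85-fold lower in glk12 and 3.88-fold lower in RPGE2-OX in the deposited table. PETE2 (AT1G20340), the other plastocyanin gene, was 2.51-fold lower in glk12 (q = 0.0019) and 1.65-fold lower in RPGE2-OX (q = 0.0046). The ferredoxin gene FD2 (AT1G60950) was 2.20-fold and 1.68-fold lower there. FD1 (AT1G10960) did not pass in either line, with log2 ratios of -0.17 ± 0.22 (q = 0.85) in glk12 and 0.12 ± 0.15 (q = 0.83) in RPGE2-OX, the latter being the only deposited ratio above 0 among the 38 genes in either line.

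The Rieske protein and reductase genes had ratios nearer 0 than PETE1, PETE2 and FD2 in each line. PETC (AT4G03280), the Rieske iron-sulfur protein of the cytochrome b6f complex, was at a deposited log2 ratio of -0.29 ± 0.18 in glk12 (q = 0.47) and was 1.41-fold lower in RPGE2-OX (q = 0.0082). LFNR1 (AT5G66190), a leaf ferredoxin-NADP reductase gene, was 1.55-fold lower in glk12 (q = 0.043) and at -0.36 ± 0.15 in RPGE2-OX (q = 0.16) in the deposited table. LFNR2 (AT1G20020) did not pass, at -0.40 ± 0.20 (q = 0.29) and -0.11 ± 0.15 (q = 0.86).

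Of the ATP synthase genes, ATPD (AT4G09650) for the delta subunit was 1.93-fold lower in glk12 and 1.88-fold lower in RPGE2-OX in the deposited table. ATPC1 (AT4G04640), the gamma subunit that turns with the rotor, was 1.56-fold lower (q = 0.033) and 1.49-fold lower (q = 0.0018). ATPG (AT4G32260), a peripheral stalk subunit, did not pass, at -0.26 ± 0.21 (q = 0.65) and -0.19 ± 0.15 (q = 0.62). In cyclic electron flow around photosystem I, PGRL1A (AT4G22890) was 1.83-fold lower in glk12 and 1.60-fold lower in RPGE2-OX in the deposited table. Its partner PGR5 (AT2G05620) was at -0.09 ± 0.17 (q = 0.93) and -0.23 ± 0.13 (q = 0.39), the smallest deposited ratio of the set in glk12.

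Within 9 pairs of paralogs named for the same subunit, the deposited ratios were often unequal. The largest gap in glk12 was that of PSBQ2 and PSBQ1, at 1.42 on the log2 scale (error at most 0.59), and it was 1.38 in RPGE2-OX (error at most 0.59). PSAH2 lay below PSAH1 by 1.15 in glk12 and by 0.76 in RPGE2-OX, with errors of at most 0.62 and 0.64. FD2 lay below FD1 by 0.97 and 0.86, with errors of at most 0.36 and 0.24. The PSAD pair had a gap of 0.75 in each line with an error of at most 0.67 and 0.66. In glk12 PSBQ and ferredoxin thus each had a paralog at or below the median of the set and another whose ratio was under 2-fold.

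Other pairs had gaps that differed in size between the lines, which was not tested. PETE1 lay below PETE2 by 0.62 in glk12 and by 1.24 in RPGE2-OX, with errors of at most 0.58 and 0.52. PSAE1 lay below PSAE2 by 0.78 and 0.11, with errors of at most 0.73 and 0.69. PSBP2 lay below PSBP1 by 0.32 and 1.45, with errors of at most 0.69 and 0.86. In the PSBO and LFNR pairs the gaps ran from 0.05 to 0.25. No test was made within pairs, and the errors take both genes as independent.

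The paralogs of a pair are similar in sequence, which bears on whether reads were assigned to the right copy. Between the coding sequences of the pairs, identity was highest for PSAD at 88.0% and PSAH at 87.0%, and it was 80.0% for PSBQ, 79.6% for FD and 75.3% for LFNR. No stretch of 50 bases was identical between the annotated transcripts of any pair, and the longest identical run in the aligned coding sequences was 35 bases, in PSAD. The sources used here give neither the read length nor the handling of reads with several matches, and an exchange of reads within these pairs was not tested.

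**Figure D3:**
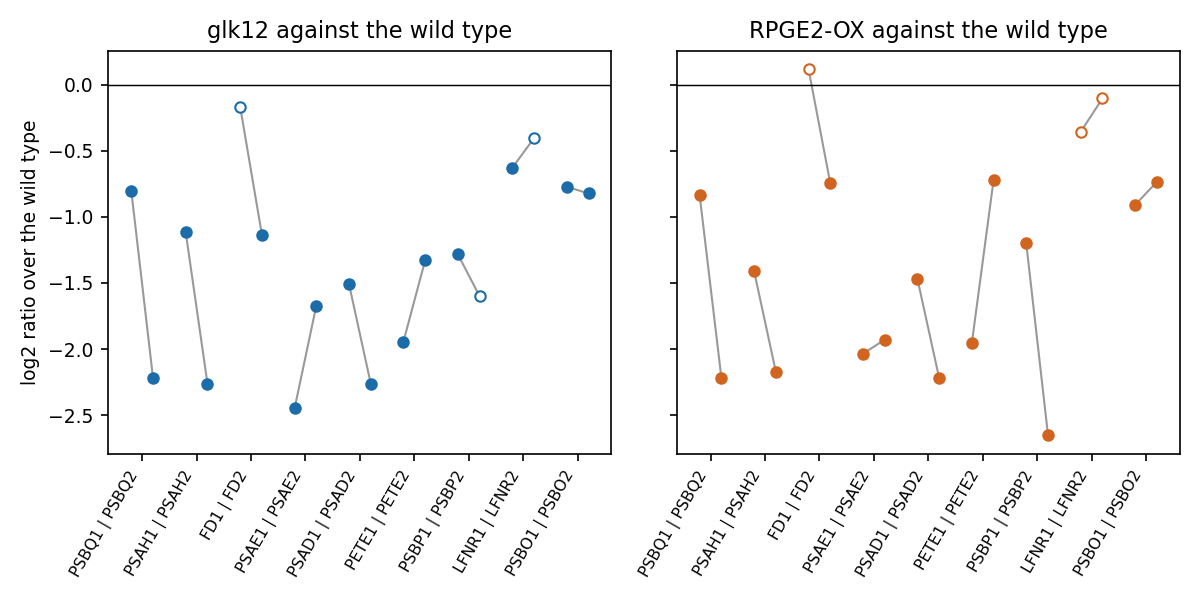
Deposited log2 ratio over the wild type (y axis) of both members of 9 paralog pairs (x axis, ordered by gap in glk12) in glk12 (left) and RPGE2-OX (right). Open points did not pass a q of 0.05. Steep lines at PSBQ, PSAH and FD mark gaps of 1.42, 1.15 and 0.97 in glk12, and flat lines at PSBO gaps of 0.05 and 0.17.

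The stretches before the annotated starts of the PSBQ and PSAH pairs and of FD2 are shown because these pairs had the largest gaps in glk12. They were read from the TAIR10.1 genome with its RefSeq annotation, up to 300 bases, trimmed where another annotated gene covers the window. PSBQ1 lies on the plus strand after chr4:11334169-11334351, PSBQ2 on the minus strand before chr4:2673244-2673543, PSAH1 on the minus strand before chr3:5469595-5469894, PSAH2 on the plus strand after chr1:19454766-19454797 and FD2 on the plus strand after chr1:22444007-22444306. The windows of FD1 and PSAE1 are covered by other annotated genes and are not shown. Capitals mark matches to any of 3 motifs on either strand: CCAATC, a sequence proposed to be associated with GLK targets that also contains the CCAAT box, GATTCT, related to the sites of the GARP family to which GLK1 belongs, and the palindromic G-box CACGTG, a site of bHLH and bZIP factors.
PSBQ1: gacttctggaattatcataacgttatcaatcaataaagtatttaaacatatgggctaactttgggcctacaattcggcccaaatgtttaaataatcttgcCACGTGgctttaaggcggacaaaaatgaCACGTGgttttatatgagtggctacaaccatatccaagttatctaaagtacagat
PSBQ2: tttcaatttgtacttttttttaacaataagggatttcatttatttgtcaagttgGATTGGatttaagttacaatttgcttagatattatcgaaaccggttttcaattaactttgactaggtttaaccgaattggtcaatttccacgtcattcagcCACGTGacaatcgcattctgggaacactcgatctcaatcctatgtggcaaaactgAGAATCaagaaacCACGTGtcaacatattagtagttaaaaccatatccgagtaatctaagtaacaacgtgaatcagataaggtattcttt
PSAH1: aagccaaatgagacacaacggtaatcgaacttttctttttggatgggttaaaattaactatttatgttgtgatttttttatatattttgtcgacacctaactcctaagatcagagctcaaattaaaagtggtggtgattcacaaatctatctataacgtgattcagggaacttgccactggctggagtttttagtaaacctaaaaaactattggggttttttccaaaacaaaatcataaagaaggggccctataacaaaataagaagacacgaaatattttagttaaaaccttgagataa
PSAH2: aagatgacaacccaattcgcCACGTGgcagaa
FD2: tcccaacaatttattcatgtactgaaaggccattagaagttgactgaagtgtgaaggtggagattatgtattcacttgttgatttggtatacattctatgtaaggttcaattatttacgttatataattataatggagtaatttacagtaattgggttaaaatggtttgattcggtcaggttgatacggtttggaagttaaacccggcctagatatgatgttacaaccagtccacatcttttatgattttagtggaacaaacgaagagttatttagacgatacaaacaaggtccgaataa
In these letters PSBQ2 held 4 matches, a CCAATC match 246 bases before the start, a GATTCT match at 90 and G-boxes at 145 and 77, and PSBQ1 held 2 G-boxes, at 83 and 55. PSAH1 and FD2 held none, and PSAH2 held a G-box 12 bases before its start. Inside the neighbouring genes, the full windows of PSAH2 and PSBQ1 held further matches, a CCAATC at 253 and a G-box at 67 for PSAH2 and a GATTCT at 291 for PSBQ1. A match is a description of the letters and not evidence of binding.

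Over all 38 genes the windows were searched at the full 300 bases. At least 1 CCAATC match was found in 8 (21.1%), against 12.2% of windows of the same length before 27443 protein-coding genes. GATTCT matches were found in 12 (31.6%, against 19%) and G-boxes in 9 (23.7%, against 7.09%). Of the 29 genes that fell in glk12, 6 held CCAATC, 10 GATTCT and 6 a G-box, and of the 9 that did not pass, 2, 2 and 3 did. None of the 3 motifs was present before 18 of the 38 genes (47.4%, against 66.3% of the protein-coding genes). Among them were PSAE1, PSAF and PETE1, which were 5.46-fold, 3.28-fold and 3.85-fold lower in glk12 in the deposited table. The window searched before PSAE1 overlaps another annotated gene, AT4G28755.

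Some subunit genes share genomic sequence with neighbours. On TAIR10.1, 12 of the 38 genes overlap another annotated gene, 10 of them on the opposite strand and 3 on the same strand, with PSBP1 in both counts. The libraries were stranded per the labels' protocols, but the sources used here do not say whether counting used the strand, so reads from both strands may not have been told apart. AT4G28755, on the opposite strand, overlaps PSAE1 by 436 bases and itself fell, with log2 ratios of -2.10 in glk12 and -2.00 in RPGE2-OX in the deposited table. AT1G55673 overlaps PSAG by 479 bases on the opposite strand and fell too, with deposited log2 ratios of -1.86 and -1.52. The longest overlap is that of PSAH1, 788 bases on the opposite strand of AT3G16130, which was not tested. PSAH2 shares 174 bases with AT1G52240 on the opposite strand, whose deposited log2 ratios of -1.70 (q = 0.78) and -1.80 (q = 0.83) did not pass. LFNR1 shares 191 bases with AT5G66180 on the opposite strand. FD1 shares 78 bases with AT1G10950 on the same strand, where counting by strand could not tell reads apart. The values of PSAE1, PSAG, PSAH1, PSAH2, LFNR1 and FD1 are uncertain to that extent. So are the gaps of the PSAE, PSAH, LFNR and FD pairs. AT5G66180, AT1G10950 and the remaining partners did not pass in either line. Among the 26 genes without an overlap, 19 fell in glk12 and 21 in RPGE2-OX, with median deposited log2 ratios of -0.91 and -0.87. Leaving out the overlaps removes PSAD2, PSAE1, PSAE2, PSAG, PSAH1, PSAH2 and PSAN, more than from any other complex. These medians and those of all 38 genes thus cover unlike mixes of complexes. Photosystem I genes without an overlap, PSAD1, PSAF, PSAK, PSAL and PSAO, fell in both lines.

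PSAH2 and the neighbouring CURT1C (AT1G52220) start in opposite directions, with 32 bases between their annotated starts. CURT1C encodes a thylakoid protein that curves grana margins, and it was 1.79-fold lower in glk12 and 1.90-fold lower in RPGE2-OX in the deposited table, at q = 0.0019 and 0.0018, against 4.80-fold and 4.51-fold for PSAH2.

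Plastid-encoded subunits of the same complexes were called at a share near that of all tested genes. Of 29 tested genes for plastid subunits of the photosystems, the cytochrome b6f complex and the ATP synthase, 1 fell in glk12 and 1 in RPGE2-OX and none rose. Their median deposited log2 ratios were -0.14 and -0.24, against -1.13 and -0.98 for the nuclear subunits. How RNA was selected for the libraries is not given here, and how well the libraries capture plastid transcripts was not tested. A missing call at a plastid gene therefore does not show that its transcript was unchanged. The call in glk12 was psbI, a small reaction centre subunit of photosystem II (1.52-fold lower, q = 0.043), and in RPGE2-OX psbL, also a small subunit of it (1.32-fold lower, q = 0.04). In glk12 psbL was at a deposited log2 ratio of 0.51 (q = 0.098). Of these plastid genes, 18 of 29 had a deposited ratio below 0 in glk12 and 27 of 29 in RPGE2-OX, against 47.7% and 47.8% of tested genes. Whether plastid genes vary independently of each other was not tested, so these counts are not separate observations. The genes psaA, psaB and psbA for reaction centre proteins had a deposited q of 1 and were not tested. Core genes that were tested did not pass in either line: psbD, the D2 reaction centre protein, was at deposited log2 ratios of 0.60 (q = 0.59) and 0.09 (q = 0.97), and psbC, a core antenna protein of photosystem II, was at 0.17 (q = 0.94) and -0.30 (q = 0.73). The photosystem I gene psaC, for the iron-sulfur subunit next to PSAD and PSAE, was at -0.22 (q = 0.69) and -0.27 (q = 0.31) in the deposited table. These core genes are named outside the rule for names, with their values known.

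Nuclear genes that serve the same electron transport chain without being subunits of its core complexes were counted in the same way. Of 17 subunits of the chloroplast NDH complex, which feeds electrons back to plastoquinone, 2 fell in glk12 (PNSB5 and PNSL4) and 3 in RPGE2-OX (PNSB5, NDHS and NDHT). The median deposited log2 ratios of the 17 were -0.43 and -0.23. Ratios below 0 were found at 17 of 17 in glk12 and 16 of 17 in RPGE2-OX, against 47.7% and 47.8% of tested genes. PNSB5 was 1.55-fold lower (q = 0.0075) and 1.37-fold lower (q = 0.016) in the deposited table. Of 37 genes for photosystem assembly, repair and thylakoid structure, 7 fell in glk12 and 8 in RPGE2-OX (medians -0.17 and -0.12) and none rose. Ratios below 0 were found at 28 and 27 of these 37 genes.

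Within that list CURT1A, CURT1B and CURT1C, which curve grana margins, had the largest called falls, while CURT1D did not pass, at deposited log2 ratios of 0.16 (q = 0.89) in glk12 and 0.24 (q = 0.61) in RPGE2-OX. CURT1D is named beyond the rule for names, after its values were seen. CURT1B was 2.48-fold and 2.02-fold lower and CURT1A 2.03-fold and 2.01-fold lower in glk12 and RPGE2-OX in the deposited table, and CURT1C followed them. LQY1, a zinc-finger protein of photosystem II repair, was 1.62-fold and 1.49-fold lower there. Of 12 further carrier isoforms and regulators of electron flow, 1 fell in each line and 1 rose in glk12. RFNR2, a root-type ferredoxin reductase, was 1.70-fold and 1.43-fold lower, while PTOX, the plastid terminal oxidase, was 1.52-fold higher in glk12 (q = 0.033) and at a deposited log2 ratio of 0.39 in RPGE2-OX (q = 0.074). The counts of these lists are set beside the background of all tested genes given above, and no test between lists was made.

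**Figure D4:**
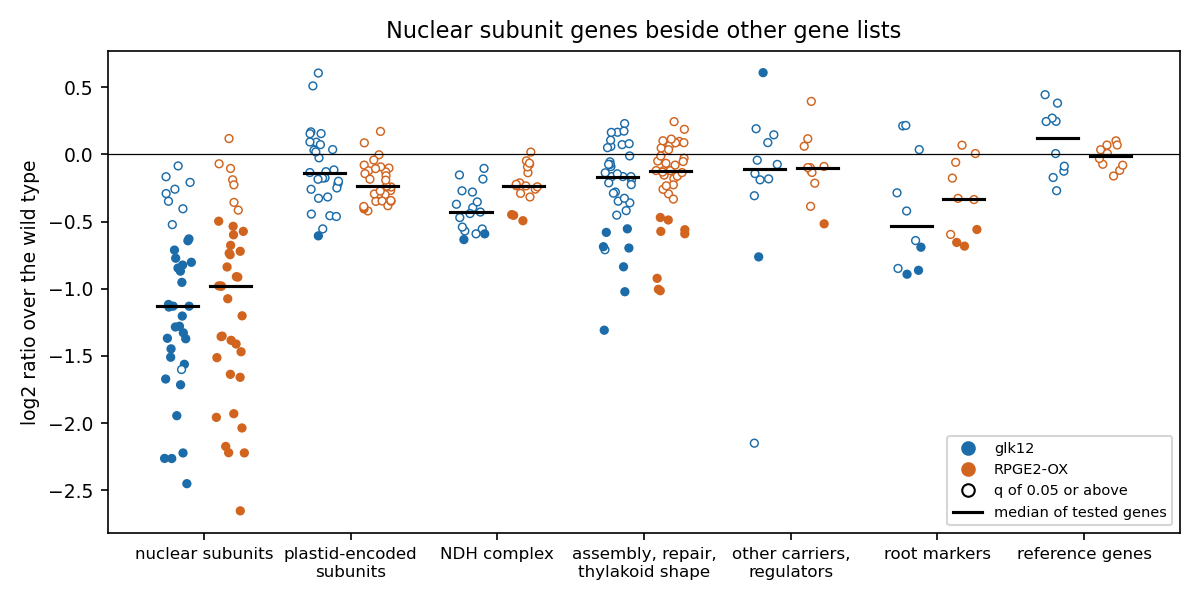
Deposited log2 ratio over the wild type (y axis) of each tested gene in 7 gene lists (x axis) in glk12 (blue) and RPGE2-OX (orange), with filled points at a q below 0.05 and bars at the medians. Nuclear subunits have medians of -1.13 and -0.98, plastid-encoded subunits -0.14 and -0.24, and reference genes 0.12 and -0.01.

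To set RPGE2-OX against glk12, 1 deposited ratio was subtracted from the other, so that the wild type cancels. No subunit gene differed past an adjusted p of 0.05 over 21380 genes (normal test with implied errors, Benjamini-Hochberg adjustment), and none had an unadjusted p below 0.05, against 0.15% and 3.6% of all genes. The median difference of the 38 genes was 0.05, with 24 genes higher and 14 lower in RPGE2-OX than in glk12. This does not show that the lines act alike. A gene that changed in a single line can hardly pass the adjusted threshold here, and the 95% interval reached 0.73 to either side at the median gene. At 22 of the 38 genes both errors were upper bounds that grow with the ratio. Unequal falls of such genes can hardly pass the adjusted threshold, and they pass the unadjusted 1 only where far apart. Among all tested genes, 571 in glk12 and 615 in RPGE2-OX were at the lowest p, so the shares of all genes are not a like background. Both errors include the spread of the shared wild-type libraries and were summed as if independent, which makes the intervals too wide and the p values too large.

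By size, the largest differences were those of PSBP2, PETE2, PSAE1 and FD2. PETE2 was higher in RPGE2-OX than in glk12 by 0.61 on the log2 scale (95% interval -0.14 to 1.35), and no other gene of the set had a smaller p. FD2 was higher by 0.39 (-0.27 to 1.05) and LFNR2 by 0.30 (-0.19 to 0.79), while PETC was lower, at -0.21 (-0.65 to 0.24). In photosystem I the differences ran from -0.29 for PSAH1 (-1.16 to 0.58) to 0.41 for PSAE1 (-1.13 to 1.95), and in photosystem II from -1.05 for PSBP2 (-3.04 to 0.94) to 0.18 for PSBR (-0.41 to 0.76). The ATP synthase genes differed by 0.04 to 0.07. None of these intervals excludes 0.

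**Figure D5:**
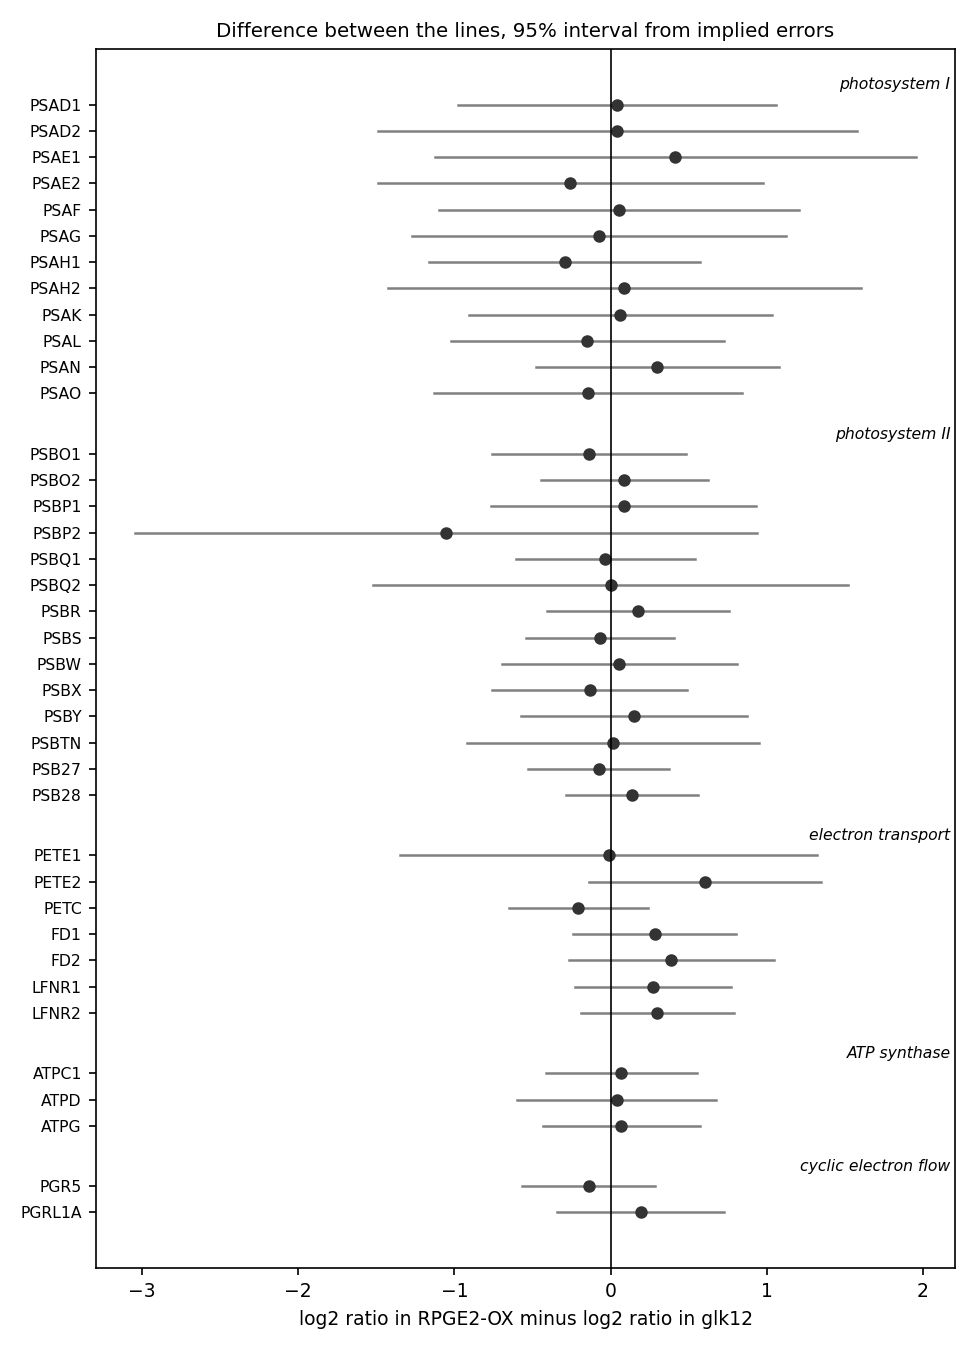
Deposited log2 ratio of RPGE2-OX less that of glk12 (x axis) for the 38 genes (y axis, by complex), with 95% intervals from implied errors, many of which are upper bounds. All intervals include 0, and PSBP2 has the widest, from -3.04 to 0.94.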

How the data were processed

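Seedlings, 3 replicates per genotype, were kept in the cold before growth, and stranded libraries were made from 1 µg of total RNA, per the labels' protocols. Per the submitters' processing notes, CASAVA 1.8.2, TopHat, Cufflinks, Cuffdiff and TAIR10 were used, in roles that are not stated. For each line over Col-0 the authors deposited log2 ratios and q-values, per the file headers, and how replicates were combined is not stated. A gene with a deposited q of exactly 1 counted as untested, and values just under 1 counted as tested. No subunit gene had an infinite ratio. With no replicate values in the table, the call was the authors' q below 0.05.

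Undoing the Benjamini-Hochberg step gave raw p-values, the lowest being 5e-05, and the size of a ratio over its normal quantile gave the implied standard error, an upper bound at that lowest p. Lines were compared by the difference of their ratios over 21380 genes, adding both errors as variances and taking the larger error where a quantile was below 0.1. The procedure was also run on simulated data with normal errors of the implied size and both lines drawn independently. That run cannot test the implied errors or the effect of the shared wild type. Members, lists, pairs and motifs were chosen with earlier results of these data known. The rule for names allowed all 38 genes and, from each other list, at most the 4 called genes with the largest change. Promoters were allowed for the 3 pairs with the largest gap in glk12 and the gene with the largest fall outside them. Loci, coordinates and sequences come from RefSeq's TAIR10.1, in which all 38 loci matched. Python 3.11.15, NumPy 2.4.6, pandas 2.3.3 and SciPy 1.17.1 were used.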

Additional observations from a re-analysis of the deposited data

How the results depend on the processing

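Under a q threshold of 0.01 the falls numbered 24 in glk12 and 29 in RPGE2-OX, and under 0.1 they numbered 30 and 32. With a minimum of 2-fold they were 20 in glk12, and in RPGE2-OX 17 rather than 31. No subunit gene was called higher under these settings. Centring on the 10 reference genes shifts every glk12 ratio by 0.12 and moves the median to -1.25, while that of RPGE2-OX becomes -0.97. Centring on all tested genes gave -1.15 and -0.99. Neither centring turned the sign of a called ratio. For the comparison of both lines, errors borrowed between lines, an adjusted p of 0.1 and centring each left 0 genes. Borrowing could not change the errors of the 22 genes at which both were upper bounds, and such genes can hardly pass. Leaving out genes that overlap another, chosen after seeing the data, left 19 and 21 falls. No paired analysis was possible because the table holds no values per replicate, and for the same reason leaving out replicates was not run. The depth of the libraries is unknown.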
